A study of Sus scrofa with 8 samples.

Results

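The Hedgehog pathway carries a secreted signal from the notochord and the floor plate of the neural tube to the neighbouring somites and neural progenitors. The ligand SHH binds the receptor PTCH1, the block on the membrane protein SMO is lifted, and the GLI transcription factors switch on target genes, among which PTCH1 and GLI1 are the usual readouts. In the somite the pathway is known for its role in forming the sclerotome, the source of vertebrae and ribs, and in starting the muscle programme, and in the neural tube for setting ventral cell fates.

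The 9 gene symbols of the pathway were looked up by name among the 21301 genes of single-cell RNA-seq libraries from pig embryos, and 8 were found, namely the ligand SHH, the receptor and feedback inhibitors PTCH1 and HHIP, the co-receptors BOC and CDON, and the transcription factors GLI1, GLI2 and GLI3. The co-receptor GAS1 was not analysed here. The libraries came from Tibetan pigs (ZZ) and from Duroc x Tibetan crossbred pigs (DZ), with somites taken at embryonic day (E) 16, E18 and E21 and myotomes at E28. Each of the 8 combinations of stage and breed was 1 library of pooled tissue from 5 embryos of a single sow, so the breeds served as the replicates of a stage, and sow, dissection and library cannot be told apart within a combination. The E28 tissue differed from that of the other stages by its label, and the E16 files named another version of the counting software, so tissue and stage at E28, and software and stage at E16, cannot be told apart.

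After filtering, 74147 cells remained, between 5436 and 10956 a library, with 39852689 to 57568895 unique molecular identifiers (UMIs, counts of captured RNA molecules) a library. In E16-ZZ 39.2% of barcodes exceeded the mitochondrial limit, against 1.05% to 9.15% in the other libraries, and any pair of libraries shared at most 38 cell barcodes. Levels below are UMIs of a gene per 1000000 UMIs (CPM) of a library or of the gated cells in it, and counting error and spread both limit the low ones. Levels of different genes were not compared, since the 3' counts are not scaled to transcript length. Cells were gated by at least 2 UMIs over fixed marker genes, none of which is among the 8 genes. The sclerotome markers are themselves listed as targets of the pathway, so that gate is not independent of pathway readouts such as PTCH1 and GLI1. The sclerotome gate (PAX1, PAX9 and NKX3-2) held 3486 cells, the muscle gate (MYF5, MYOD1, MYOG, MYMK, CDH15 and MYF6) 5273 cells and the neural gate 1312 cells, in which SOX3 and PAX6 stood for the neural markers. Among cells without an SHH UMI at most 0.097% of a library held SOX3, so the neural gate rested mainly on PAX6. Neural cells with little PAX6 were not covered. The muscle gate held 25 and 20 cells at E16, and no cell passed the neural gate at E28.

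The genes lie on 7 chromosomes of the Sscrofa11.1 assembly, with SHH and GLI3 both on chromosome 18. Windows upstream of the RefSeq transcript starts were searched on both strands for the GLI-type motif GACCACCCA, whose reverse complement is TGGGTGGTC. Within 1000 bases before the gene start, 0 of the 8 genes held it, against 0.75% of 20609 genes. In a window of 2000 bases before any annotated transcript start, chosen after the first window had given no match, PTCH1 alone of the 8 held it, against 2.01% of 20590 genes. The match lies on chr10:26634727-26634735, 1032 bases before a PTCH1 transcript start at 26635759, inside the gene and outside every annotated exon. It is shown because PTCH1 is the target gene followed through the gates below. The stretch chr10:26634707-26634755, plus strand, with the motif in capitals, reads:
PTCH1 upstream stretch: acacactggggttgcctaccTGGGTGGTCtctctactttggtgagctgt
A match of letters is a description and no evidence of binding.

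SHH was read at very low counts and in few cells. Taking ZZ before DZ, 19 and 29 SHH UMIs were counted at E16, 34 and 9 at E18, 21 and 4 at E21, and 0 in either library of E28. The 116 UMIs of all libraries thus came from the somite stages, and the ZZ and DZ libraries of E18 and E21 stood further apart than the 2 libraries of E16. Over both E28 libraries together 85212169 UMIs were read, and 3 counts, the upper limit that a count of 0 allows, would be 0.0352 CPM. The mean level at E16 and E18 was 0.436 CPM, at least 12.4-fold higher than that limit. These limits cover counting error only.

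**Figure D1:**
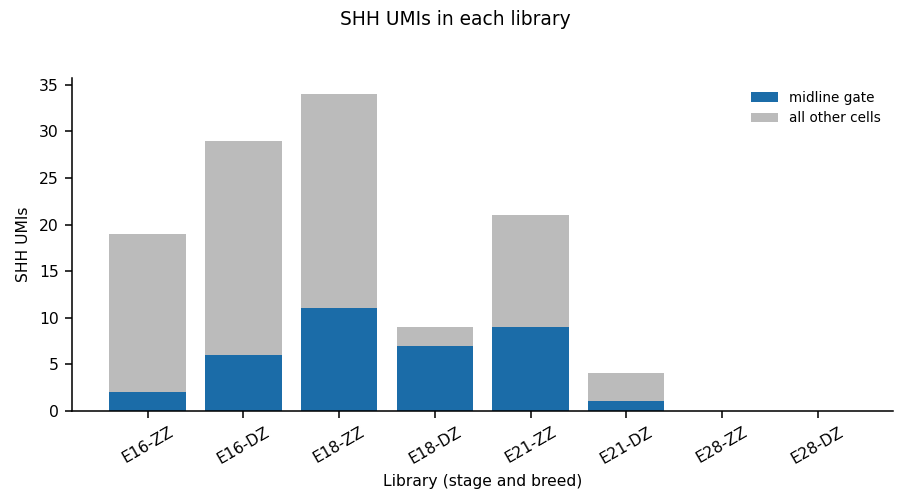
SHH UMIs (vertical axis) in each of the 8 libraries (horizontal axis), split into cells of the midline gate (blue) and all other cells (grey). The E28 libraries hold 0 UMIs and E18-ZZ holds the most, 34.

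Cells of the notochord and floor plate were sought through the midline gate, which needs 2 UMIs of FOXA2, a factor of both structures, and TBXT, a factor of the notochord. It held 0.29% of all cells (214 cells) and 36 of the 116 SHH UMIs (31.0%). In the 5 libraries with at least 20 such cells the SHH level was 15.3 and 14.2 CPM at E16, 34.6 and 31.6 CPM at E18, and 49.4 CPM in the ZZ library of E21. In the E18 libraries and E21-ZZ these levels were above those of the sclerotome, muscle and neural gates of the same library, where 4, 2 and 1 UMIs were found in all libraries together. At E16 they rested on 2 and 6 UMIs, and a difference from the small muscle sums was not detectable at that depth. A further 36 UMIs lay in cells of no gate and 20 in the chondrogenic gate, which may share cells with the midline gate. The erythroid gate, blood cells that should lack SHH, held 0 UMIs in 6866505 UMIs of 959 cells. The pooled level of all cells was 0.303 CPM, at which few UMIs would be expected there. The 0 therefore could not show whether free RNA added SHH UMIs to other cells.

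Among the 91 cells with an SHH UMI, 59 also held a FOXA2 UMI, which is 64.8% (exact 95% interval 54.1% to 74.6%), whereas 0.02% to 3.96% of the other cells of a library did. SPON1, a secreted floor plate protein, was found in 42 of them, against 0.27% to 10.6% of other cells, and NKX6-1, a factor of ventral neural progenitors, in 29, against 0.10% to 5.49%. PTCH1 was found in 36, where 5.14% to 18.7% of other cells held it, and TBXT in 3, against 0% to 0.148% of other cells. The epithelial markers EPCAM and CDH1 were found in 23 and 7 of the 91 cells, against 0.21% to 15.5% and 0.087% to 4.08% of other cells. FOXA2 is a factor of the endoderm as well, and the cells with an SHH UMI were not assigned to a tissue. PAX6 was found in 3 of them, against 0% to 9.62% of other cells, or 3.02% to 9.62% at E16 to E21. All these ranges of other cells include the E28 libraries, which held no cell with an SHH UMI. SOX3 was found in 0 (exact 95% upper limit 3.97%), against 0% to 0.097% of other cells, so a lack of SOX3 could not be detected. The intervals treat cells as independent and cover counting error only. Over 97 sums of a gate in a library the genes with the highest Pearson correlation with SHH on the log2(CPM + 1) scale included FOXA2 (r = 0.83) and FOXA1 (r = 0.81). FOXA2 is a marker of the midline gate, the sums share libraries and depth, and the correlation is a description.

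PTCH1, the receptor that also restrains the pathway, was highest in the middle of the series of stages and lowest at E28. Whole-library PTCH1 levels were 27.2 and 27.9 CPM at E16 (ZZ and DZ), 39.4 and 47.5 CPM at E18, 37.7 and 30.9 CPM at E21, and 13.5 and 15.2 CPM at E28. The E28 libraries lay below every other library. In whole libraries a smaller number of cells of a type and less RNA per cell cannot be told apart. HHIP, a membrane protein that traps the ligand, was 10.7 and 7.67 CPM at E16, 10.6 and 14.4 CPM at E18, 14.9 and 14.7 CPM at E21, and 6.70 and 6.59 CPM at E28. The HHIP levels of E28 were the lowest of all, and those of E16 and E18 overlapped.

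The co-receptors, which hand the ligand to PTCH1, rose in whole libraries instead. BOC was 15.4 and 24.7 CPM at E16, 29.7 and 45.3 CPM at E18, 61.9 and 72.7 CPM at E21, and 126 and 158 CPM at E28, and no library of one stage reached the lowest of the next. CDON was 6.52 and 7.39 CPM at E16, 11.5 and 15.5 CPM at E18, 16.3 and 20.9 CPM at E21, and 24.5 and 21.7 CPM at E28. The CDON ranges of the 4 stages did not overlap. The connective tissue gate held 689 and 190 cells at E16 and 5322 and 4211 at E28. Its share of the BOC UMIs was 14.5% and 3.51% at E16 and 59.8% and 45.3% at E28. For CDON its share was 26.5% and 5.41% at E16 and 55.5% and 33.6% at E28. The part of these cells in the rises was not tested.

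Of the transcription factors, GLI3, whose short form represses targets in the absence of the ligand, went up stage by stage, from 49.0 and 54.9 CPM at E16 through 74.1 and 75.8 CPM at E18 and 89.2 and 91.0 CPM at E21 to 131 and 144 CPM at E28. GLI2, the main activator, was 10.99 and 11.8 CPM at E16 and between 21.3 and 24.96 CPM in the other 6 libraries. GLI1, an activator and itself a target, was 7.73 and 7.18 CPM at E16, 11.8 and 14.4 CPM at E18, 14.8 and 14.6 CPM at E21, and 14.3 and 8.37 CPM at E28. The E28 libraries disagreed for GLI1 more than those of any other stage.

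**Figure D2:**
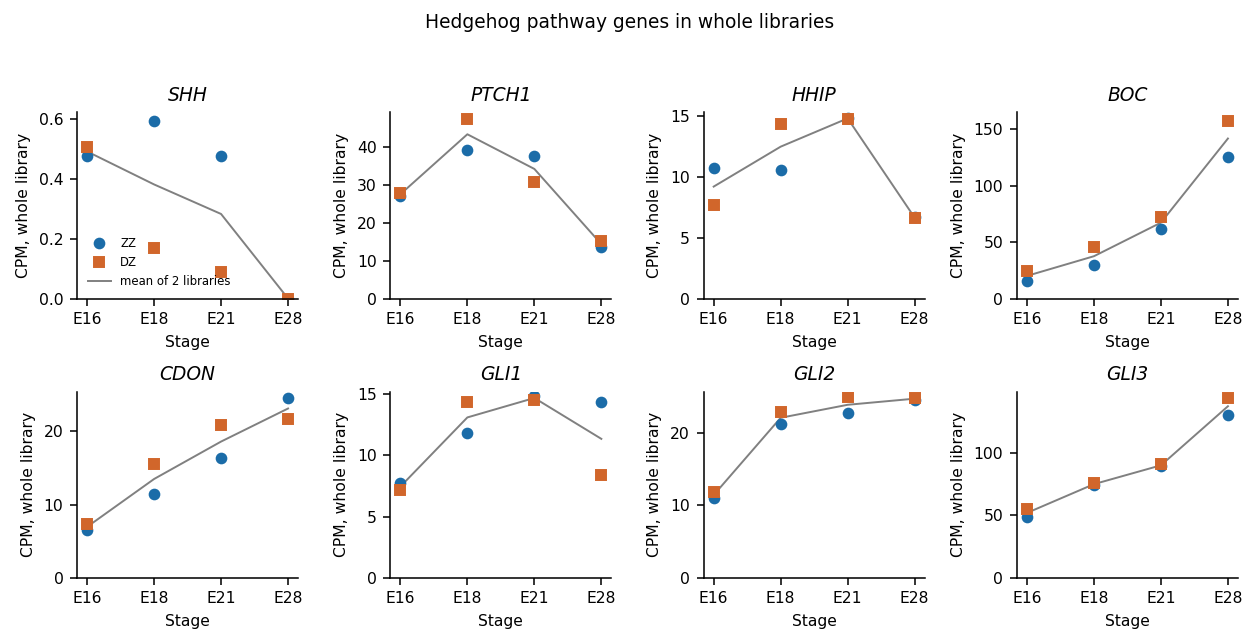
Whole-library level (CPM, vertical axis) of the 8 genes at each stage, with 1 point a library (blue circles ZZ, orange squares DZ) and a grey line through the mean of the pair. BOC, CDON and GLI3 climb from E16 to E28, while PTCH1 and HHIP are lowest at E28, where SHH has 0 UMIs.

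Late (E21 and E28) and early (E16 and E18) libraries were compared by edgeR's quasi-likelihood test on summed counts, with adjusted p by Benjamini-Hochberg over all genes tested. Of the 8 genes 6 passed, 4 higher and 2 lower late, where 51.9% of all 15119 genes tested were called. Their median log2 fold change was 0.32, and that of all genes 0.03. BOC rose by 1.68 ± 0.10 (log2 fold change ± standard error, adjusted p = 6.72e-05), CDON by 0.93 ± 0.15 (adjusted p = 0.00242), GLI3 by 0.65 ± 0.07 (adjusted p = 0.000577) and GLI2 by 0.44 ± 0.10 (adjusted p = 0.00931). PTCH1 fell by 0.82 ± 0.09 (adjusted p = 0.000609). SHH was called lower (adjusted p = 0.00767), with 0 UMIs at E28, where no cell passed the midline gate either. The SHH level was equal in E16-ZZ and E21-ZZ, at 0.477 CPM. GLI1 (0.20 ± 0.20, adjusted p = 0.415) and HHIP (-0.29 ± 0.17, adjusted p = 0.188) did not pass. Between 5 and 7 genes passed when single libraries were left out, GLI1 among them without E28-DZ (0.424, adjusted p = 0.0458), and HHIP passed with a mitochondrial limit of 5% (-0.498, adjusted p = 0.0498). With early and late as 2 levels rather than 4 stages, 3 genes passed, and PTCH1 (adjusted p = 0.139), GLI2 (adjusted p = 0.216) and SHH (adjusted p = 0.155) did not. GLI2 was also lost when either E18 library was left out (0.43 and 0.41), and GLI2 and CDON when both E16 libraries were (0.06 and 0.56).

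The steps between stages placed most of the loss of PTCH1 at E28. From E21 to E28 PTCH1 fell by 1.26 ± 0.13 (adjusted p = 0.00637) and HHIP by 1.17 ± 0.24 (adjusted p = 0.0328), while BOC rose by 1.06 ± 0.14 (adjusted p = 0.0098) and GLI3 by 0.59 ± 0.10 (adjusted p = 0.0209), with 8.53% of all genes called. The neural gate, empty at E28, held 3.13% and 2.68% of the PTCH1 UMIs and 5.04% and 5.33% of the HHIP UMIs of the E21 libraries. Cells of no gate numbered 3466 and 3111 at E21 and 887 and 1025 at E28, and they held 33.2% and 31.6% of the PTCH1 UMIs at E21 and 5.84% and 6.53% at E28, and 41.4% and 35.5% of the HHIP UMIs at E21 and 8.33% and 4.32% at E28. The part of these cells in both falls was not tested. SHH was called in none of the 3 steps (adjusted p = 0.478, 0.585 and 0.0597), though by DESeq2 it was from E21 to E28 (adjusted p = 0.00409). From E16 to E18 GLI2 rose by 0.78 ± 0.14 (adjusted p = 0.0349) and BOC by 0.74 ± 0.14 (adjusted p = 0.038), against a background of 4.70% of genes. From E18 to E21 BOC alone passed (0.78 ± 0.14, adjusted p = 0.0114), where 21.2% of genes did. Both calls from E16 to E18 were lost with a mitochondrial limit of 5% and when any one of the 4 libraries of these stages was left out, and the call from E18 to E21 when E18-ZZ, E18-DZ or E21-ZZ was. Of the last step, HHIP was lost when any one library of E21 or E28 was left out, and GLI3 when either E18 library, either E28 library or E21-ZZ was.

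Other genes of the pathway, listed by role, moved in both directions. Of 43 listed genes 37 were tested in whole libraries, and 12 were higher and 10 lower late, where 51.9% of all genes were called, with a median log2 fold change of 0.17 against 0.03 over all genes. Among the ligands and release proteins DISP1, which exports the ligand, rose by 1.62 ± 0.15 and the ligand IHH was 8-fold lower (adjusted p = 0.00272). Of the 8 tested targets 5 were lower and 2 higher. FOXF1, a target in mesoderm, fell by 4.78 ± 0.26. The lateral mesoderm gate held 1193 and 1567 cells at E16, 17 and 63 at E21, and 0 and 0 at E28. FOXA2, a factor of the midline and the endoderm, fell by 3.91 ± 0.75, while the epithelial gate held 480 and 712 cells at E16 and 13 and 0 at E28. The part of these cells in both falls was not tested. PAX9 and PAX1 of the sclerotome rose by 2.19 ± 0.16 and 1.07 ± 0.15. IHH did not keep a steady course, since it was called lower from E16 to E18 and higher from E21 to E28.

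Breed was compared over the 4 stages. None of the 8 genes passed (0 of 8), and 0% of the 15119 genes tested were called by edgeR, although 918 of them and 1 of the 8, BOC, had an unadjusted p below 0.05. BOC was lower in ZZ at each of the 4 stages, by 0.44 ± 0.10 (adjusted p = 0.711), and passed by DESeq2 (adjusted p = 0.00178). SHH was 1.22 ± 0.58 higher in ZZ, with an adjusted p of 0.81. Each breed was represented by 1 sow at a stage.

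The 3 gates were then compared within libraries, each gate against the other gates of the same library. PTCH1 was higher in the sclerotome gate than in the muscle gate in 8 of 8 libraries. In the sclerotome gate PTCH1 was 73.6, 90.7, 92.4, 84.0, 87.6, 80.2, 50.1 and 52.6 CPM from E16-ZZ to E28-DZ, taking ZZ before DZ at each stage. In the muscle gate it was 10.2, 60.1, 32.0, 42.6, 17.6, 14.6, 7.06 and 6.61 CPM in the same order. In the neural gate it was 56.6, 48.03, 72.5, 92.1, 88.1 and 101 CPM from E16-ZZ to E21-DZ, a range that overlapped that of the sclerotome gate.

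PTCH1 exceeded the muscle gate by 1.99 ± 0.21 in the sclerotome gate (adjusted p = 7.84e-07), and GLI1 by 1.52 ± 0.30 (adjusted p = 0.00073). CDON was 2.31 ± 0.31 lower in the sclerotome gate (adjusted p = 1.55e-05), and lower in 8 of 8 libraries. These were 3 of 7 genes tested, while 25.2% of all genes were called, and the count was 3 whichever single library was left out and under each other choice of cells and gates. GLI2 (-0.07 ± 0.17), GLI3 (0.21 ± 0.23), HHIP (0.29 ± 0.45) and BOC (-0.23 ± 0.28) did not pass. SHH was too low to be tested in any gate.

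Muscle and neural cells differed in 4 of the 7 genes, where 30.4% of all genes were called. PTCH1 was 1.60 ± 0.24 lower in the muscle gate (adjusted p = 5.35e-05), GLI1 1.04 ± 0.37 lower (adjusted p = 0.0368) and GLI3 0.79 ± 0.27 lower (adjusted p = 0.0299), and CDON was 1.72 ± 0.38 higher (adjusted p = 0.00188). The GLI1 call was lost when any one library but E21-ZZ or E28-DZ was left out, and that of GLI3 when E16-DZ, E21-ZZ or E21-DZ was. GLI1 was also lost with a mitochondrial limit of 5% (adjusted p = 0.111) and with sums of at least 50 cells (adjusted p = 0.0504). With gates of at least 1 UMI GLI1 (adjusted p = 0.0821) and GLI3 (adjusted p = 0.121) did not pass, and with cells thinned to 2000 UMIs GLI1 (adjusted p = 0.115) and CDON (adjusted p = 0.063) did not. Between the sclerotome and neural gates 0 of the 7 genes passed in edgeR, where 24.5% of all genes were called. Of the 7, 3 had an unadjusted p below 0.05, and 2, GLI2 and BOC, both lower in the sclerotome gate, were called by DESeq2, with doublets kept and with gates that may overlap. GLI3 was lower in the sclerotome gate in 6 of 6 libraries, at 57.0 ± 24.8 CPM against 111 ± 11.6 CPM (SD, n = 6), with -0.58 ± 0.27 in the fit. GLI2, BOC and CDON were lower there in 6 of 6 libraries as well.

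**Figure D3:**
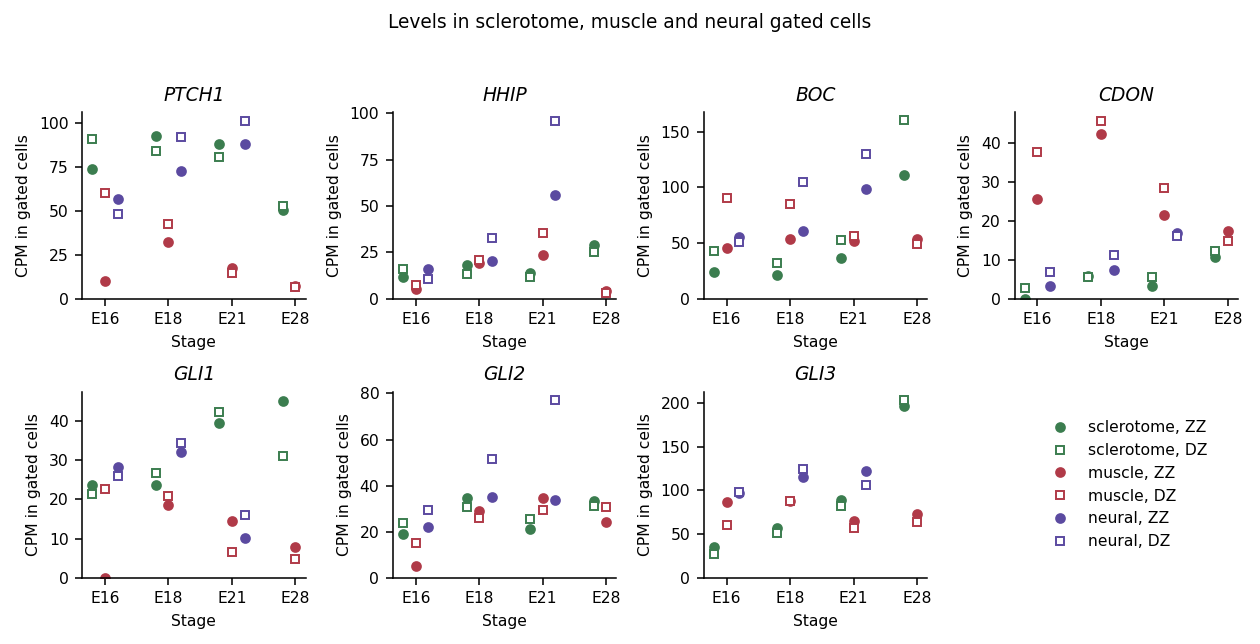
Level (CPM, vertical axis) in the sclerotome (green), muscle (red) and neural (purple) gates at each stage, with 1 point a library (filled circles ZZ, open squares DZ). PTCH1 is higher in the sclerotome than in the muscle gate in 8 of 8 libraries, and CDON lower in 8 of 8.

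Free RNA in the droplets could add UMIs to any cell, so shares of cells were set against erythroid cells at an equal depth of 2000 UMIs a cell. PTCH1 was found in 8.10% to 21.2% of the sclerotome cells of a library, in 8.40% to 17.8% of the neural cells and, in the 6 libraries from E18 on, in 0.82% to 9.93% of the muscle cells, with the sclerotome share above the muscle share in each of these 6. The PTCH1 share of erythroid cells was 0% to 2.63% in a library and 0.59% of 852 cells in all. Before thinning the shares over all libraries were 29.2% of sclerotome, 31.9% of neural, 6.77% of muscle and 2.82% of erythroid cells, in which the stages have unequal weights. CDON was found after thinning in 2.65% to 9.93% of the muscle cells of these 6 libraries and in 0% to 2.38% of the sclerotome cells of all 8, against 0.35% of erythroid cells. For HHIP the thinned share of muscle cells lay between 3.14% and 4.32% in the E18 and E21 libraries and was 0.82% and 0.71% in those of E28, against 0.94% of the 852 erythroid cells of all libraries and 0 of the 44 and 48 erythroid cells of E28.

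Over all gates and their subsets, which cover different sets of libraries, the order of levels differed from gene to gene. PTCH1 was highest in the midline gate (142.7 ± 39.7 CPM, SD, n = 5), followed by ventral neural cells (111 ± 38.1, n = 4) and by the sclerotome (76.4 ± 16.6, n = 8) and neural (76.4 ± 21.0, n = 6) gates, and then by chondrogenic cells (53.7 ± 12.2, n = 8). Midline and ventral neural cells did not differ beyond their spread, with ventral cells higher in 1 of 4 libraries, and neither did the sclerotome and neural gates. It was lowest in erythroid cells (4.79 ± 2.53, n = 8). GLI1 was highest in ventral neural cells (47.4 ± 11.4 CPM, n = 4), followed by the sclerotome (31.7 ± 9.37, n = 8), neural (24.5 ± 9.49, n = 6) and chondrogenic (20.9 ± 7.64, n = 8) gates. In the 4 libraries with both, GLI1 was 36.6 to 58.4 CPM in ventral neural cells and 21.3 to 26.6 CPM in the sclerotome gate, without overlap. The sclerotome, neural and chondrogenic gates did not differ beyond their spread as neighbours, and within libraries GLI1 was higher in the sclerotome than in the neural gate in 2 of 6. In the midline gate, where PTCH1 was highest, GLI1 was 10.3 ± 7.31 CPM and GLI2 4.21 ± 3.88 CPM. These rested on 15 and 6 UMIs over 209 cells, and no GLI2 level was above that of 3 counts in its sum.

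BOC and GLI3 had their highest means in the dermomyotome gate (PAX3 and DMRT2), at 163 ± 78.7 and 157 ± 42.8 CPM (n = 8). Dorsal neural cells followed at 144 ± 47.1 and 135 ± 13.7 CPM (n = 5). The gate is named after the epithelial sheet that feeds muscle. PAX3 is also a dorsal neural factor, so dorsal neural cells with little PAX6 may fall into this gate, and their part in its levels was not tested. In the 5 libraries with both, BOC was higher in dorsal neural cells in 3 and GLI3 in 2. CDON was 40.2 ± 17.1 CPM in the dermomyotome gate, 34.2 ± 13.6 CPM in muscle progenitors (n = 7) and 29.1 ± 11.5 CPM in the whole muscle gate, within the spread, and progenitors were higher than the dermomyotome gate in 3 of 7 libraries. HHIP was 38.5 ± 32.4 CPM in the neural gate (n = 6) and 37.9 ± 19.9 CPM in its dorsal cells (n = 5). GLI2 was 46.4 ± 9.86 CPM in ventral neural cells (n = 4), 42.1 ± 26.3 CPM in dorsal ones and 41.5 ± 19.96 CPM in the neural gate. These were the highest levels of both genes, and they did not differ beyond their spread. The genes with the highest correlation with PTCH1 over the 97 sums were HOXB4 (r = 0.75), RAD21 (r = 0.75) and FZD7 (r = 0.72). For GLI1 they were ZNF236 (r = 0.71), PTCH1 (r = 0.70) and PYGO1 (r = 0.68), and for HHIP CENPI (r = 0.60), HJURP (r = 0.56) and ASPM (r = 0.54).

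Other pathway genes were called between the gates at shares not far from those of all genes. Of 28 tested in the sclerotome against the muscle gate, 5 were higher and 3 lower, where 25.2% of all genes were called, among them SCUBE1, which helps to release the ligand, higher by 2.68 ± 0.41, and FOXF1, higher by 3.71 ± 0.72. NKX6-1 was higher by 2.99 ± 0.78 and DISP1 lower by 1.44 ± 0.26. Against the neural gate the sclerotome gate had 4 higher and 4 lower of 28, where 24.5% of all genes were called, and the muscle gate 2 higher and 9 lower of 28, where 30.4% were. LRP2, a receptor that takes up the ligand in neural tissue, was lower by 5.10 ± 0.53 in the sclerotome and by 4.32 ± 0.54 in the muscle gate than in the neural gate.

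Within the neural gate, cells were split by ventral factors (NKX6-1, OLIG2, NKX2-2 or FOXA2) and dorsal factors (PAX3 or PAX7), in the 3 libraries that had at least 20 cells of each. The ventral factors are themselves listed as targets of the pathway, so the split is not independent of the readouts PTCH1 and GLI1. PTCH1 was 98.8, 126 and 153 CPM in ventral cells of E16-DZ, E18-ZZ and E18-DZ, and 12.6, 40.8 and 66.6 CPM in dorsal cells. GLI1 was 36.6, 38.6 and 58.4 CPM in ventral and 12.6, 9.28 and 16.3 CPM in dorsal cells. BOC was 21.9, 30.0 and 36.2 CPM in ventral and 101, 94.7 and 202 CPM in dorsal cells. The ranges of the ventral and dorsal cells did not overlap for these genes.

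PTCH1 was higher in ventral cells by 1.498 ± 0.205 (adjusted p = 6.97e-07) and GLI1 by 1.84 ± 0.36 (adjusted p = 0.00062), and BOC was lower by 2.16 ± 0.22 (adjusted p = 4.51e-10). These were 3 of 6 genes tested, while 1.83% of all 6295 genes were called. The call of GLI1 rested on 57 UMIs in ventral and 20 in dorsal cells, and was lost by DESeq2 (adjusted p = 0.256) and without E18-DZ (adjusted p = 0.254). GLI3 was lower in 3 of 3 libraries (-0.57 ± 0.18, adjusted p = 0.0904) and passed with gates that may overlap (adjusted p = 0.00356), and GLI2 and HHIP gave 0.23 ± 0.29 and 0.18 ± 0.38. CDON was not tested. Of the other pathway genes 17 were tested and 1 was called, LRP2, which was lower in ventral cells by 1.00 ± 0.27.

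In the muscle gate the differentiated cells (at least 2 UMIs of MYOG and MYMK) were compared with progenitors (none), in the 6 libraries from E18 on. GLI3 was 114, 116, 94.7, 83.3, 105 and 91.8 CPM in progenitors and 19.2, 19.8, 35.0, 19.6, 37.0 and 32.8 CPM in differentiated cells, from E18-ZZ to E28-DZ. BOC was 71.8, 112, 72.4, 78.6, 79.8 and 73.8 CPM in progenitors and 10.7, 23.4, 30.7, 24.8, 23.2 and 27.1 CPM in differentiated cells. The ranges did not overlap for either gene. GLI3 fell by 1.498 ± 0.152 (adjusted p = 1.17e-05), BOC by 1.42 ± 0.15 (adjusted p = 1.47e-05), GLI1 by 1.74 ± 0.31 (adjusted p = 0.000753), CDON by 0.92 ± 0.17 (adjusted p = 0.00086) and GLI2 by 0.45 ± 0.16 (adjusted p = 0.0394).

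All of these 5 were lower in differentiated cells in 6 of 6 libraries. PTCH1 (0.06 ± 0.15, adjusted p = 0.80) and HHIP (-0.42 ± 0.35, adjusted p = 0.364) did not pass. By CPM, PTCH1 was lower in differentiated cells in 5 of 6 libraries, against the sign of the fit. The 5 of 7 stood against 40.1% of all genes. GLI2 was lost when E18-DZ, E21-ZZ, E21-DZ or E28-ZZ was left out, and with cells thinned to 2000 UMIs GLI2 (adjusted p = 0.0623) and CDON (adjusted p = 0.0761) were lost, HHIP passed (-1.832, adjusted p = 0.00572) and GLI1 was not among the genes tested. Of 24 other pathway genes tested 3 were higher and 5 lower. Among these GPC3, a glypican that binds the ligand, was lower by 1.23 ± 0.13, GPC6 lower by 0.85 ± 0.17 and HHAT lower by 0.82 ± 0.27, whereas GPC4 was higher by 1.63 ± 0.19.

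**Figure D4:**
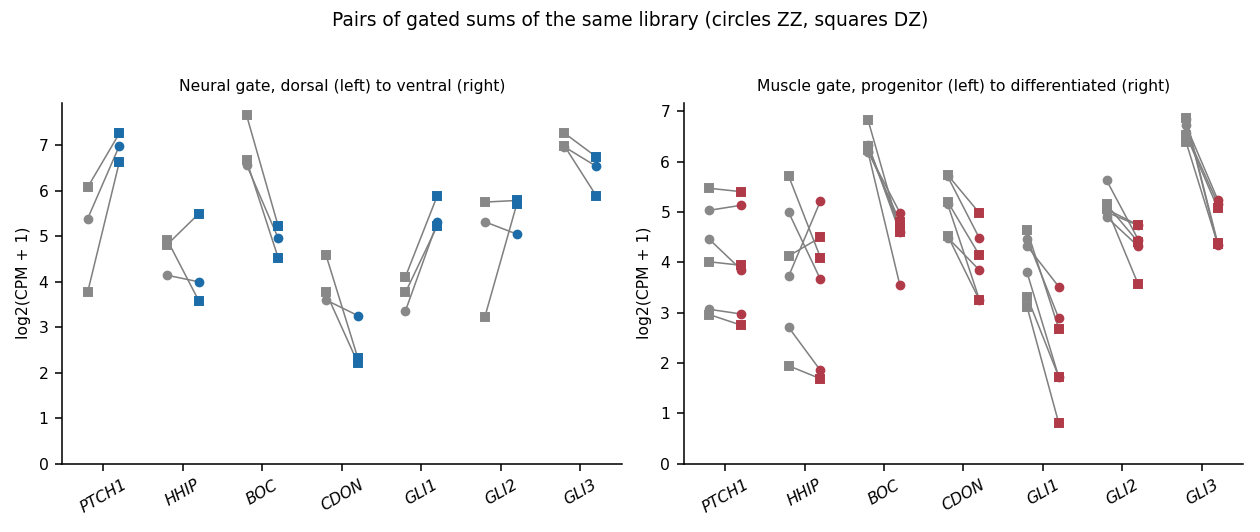
Level on the log2(CPM + 1) scale (vertical axis) of 7 genes in dorsal (grey) and ventral (blue) neural cells of 3 libraries, and in progenitor (grey) and differentiated (red) muscle cells of 6 libraries, with a line joining the cells of a library. PTCH1 and GLI1 are higher ventrally and BOC lower in 3 of 3 libraries, and GLI3 and BOC are lower in differentiated muscle in 6 of 6.

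Change with stage was then followed inside the gates. In the sclerotome gate GLI3 was 35.6 and 26.7 CPM at E16, 57.2 and 51.3 CPM at E18, 89.2 and 81.9 CPM at E21, and 196 and 204 CPM at E28. BOC was 23.7 and 42.7 CPM at E16, 21.2 and 32.1 CPM at E18, 36.2 and 52.8 CPM at E21, and 111 and 161 CPM at E28. The GLI3 ranges of the 4 stages did not overlap, whereas for BOC that of E16 overlapped those of E18 and E21. GLI1 was between 21.3 and 26.6 CPM in the early libraries and between 31.1 and 45.2 CPM in the late ones. PTCH1 was 73.6 to 92.4 CPM in the early libraries, 87.6 and 80.2 CPM at E21, within that range, and 50.1 and 52.6 CPM at E28. Its late level was thus lower at E28 only, where tissue and stage cannot be told apart.

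Of 7 genes tested in the sclerotome gate 4 passed, against 32.2% of all genes. GLI3 rose by 1.55 ± 0.14 (adjusted p = 1.77e-06), BOC by 1.28 ± 0.15 (adjusted p = 2.22e-05) and GLI1 by 0.62 ± 0.21 (adjusted p = 0.0385), and PTCH1 fell by 0.49 ± 0.13 (adjusted p = 0.0111). GLI1 was lost when any one library but E18-DZ, E21-ZZ or E28-DZ was left out and by DESeq2 (adjusted p = 0.0507), and PTCH1 when E16-DZ or E18-ZZ was. Both were lost with gates of at least 3 UMIs (adjusted p = 0.136 and 0.0693) and with cells thinned to 2000 UMIs (adjusted p = 0.733 and 0.283). The same cells held more of other markers late. The summed level of 4 chondrogenic markers was 64.0 to 126 CPM early and 292 to 556 CPM late, and that of 3 connective tissue markers was 13.3 to 63.3 CPM early and 182 to 1799 CPM late, with 0 to 2 of these 4 and of these 3 markers at 0 in a library. The 4 neuron markers summed to 4.75 to 9.73 CPM early and 15.5 to 37.1 CPM late, with up to 3 of them at 0 early and up to 1 late. Their part in the rise of GLI3 and BOC was not tested.

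In the muscle gate PTCH1 alone passed of 7 genes tested, where 16.8% of all genes did, and it fell by 1.58 ± 0.37 (adjusted p = 0.00617). The E16 sums held 25 and 20 cells and 2 and 8 PTCH1 UMIs, and without E16-DZ the call was lost (adjusted p = 0.426). Without both E16 libraries 4 genes passed, all lower late. These were PTCH1, GLI1 (-1.29, adjusted p = 0.0135), HHIP (-0.92, adjusted p = 0.0404) and CDON (-1.04, adjusted p = 0.0046). Without E16-DZ alone GLI1 had the opposite sign (3.537, adjusted p = 0.469). HHIP in the muscle gate was 19.1 and 20.8 CPM at E18, 23.2 and 35.5 CPM at E21, and 3.89 and 2.998 CPM at E28, where both libraries lay below those of E18 and E21. With gates of at least 3 UMIs, which also leaves out the E16 sums, 4 genes passed, and with a mitochondrial limit of 5% 3 did. The counts under these alternatives were not set against the share of all genes called there. Whether the gains are particular to these genes therefore cannot be told. Other markers moved in the muscle gate too. The summed level of 3 connective tissue markers was 0 to 15.5 CPM early and 102 to 373 CPM late, that of 4 neuron markers 0 to 8.22 CPM early and 19.8 to 33.5 CPM late, and that of the 6 muscle markers 320 to 888 CPM early and 1405 to 2171 CPM late. The early libraries had up to 3, 4 and 2 of these markers at 0, and the late ones none. Lower late were 4 chondrogenic markers (37.6 to 40.7 CPM early, 16.2 to 22.5 CPM late, 0 to 3 at 0), 3 lateral mesoderm markers (8.22 to 60.1 CPM early, 0.088 to 1.62 CPM late, 0 to 2 at 0) and 4 endothelial markers (15.0 to 55.9 CPM early, 9.26 to 12.9 CPM late, 0 to 2 at 0). The differentiated cells of the gate numbered 1 of 25 and 1 of 20 at E16, 55 of 221 and 94 of 296 at E18, 251 of 587 and 229 of 649 at E21, and 480 of 1215 and 983 of 2260 at E28, and GLI3, BOC and GLI1 were lower in these cells than in progenitors. PTCH1 was not called between differentiated cells and progenitors (0.06 ± 0.15). It was 31.8 and 43.5 CPM at E18 and 7.39 and 6.81 CPM at E28 in progenitors. In differentiated cells it was 34.2 and 41.4 CPM at E18 and 6.87 and 5.75 CPM at E28. The part of these markers and cells in the fall of PTCH1, and in the difference from the sclerotome gate given next, was not tested.

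The difference of the stage effect between the sclerotome and muscle gates was tested with the library as a block, a comparison chosen after the data were seen. Of 7 genes 4 passed, against 8.22% of all genes. The change was higher in the sclerotome gate for BOC by 1.74 ± 0.41 (adjusted p = 0.0169), GLI1 by 1.73 ± 0.40 (adjusted p = 0.0137), GLI3 by 1.69 ± 0.28 (adjusted p = 0.00149) and PTCH1 by 1.21 ± 0.27 (adjusted p = 0.0102). GLI2 (-0.58 ± 0.30), CDON (1.32 ± 0.54) and HHIP (0.62 ± 0.93) did not pass. Without E18-DZ only GLI3 of the 7 passed, without E18-ZZ GLI3 and PTCH1, and without E21-ZZ CDON passed as well. With sums of at least 50 cells, which leaves out the E16 muscle sums, BOC did not pass (adjusted p = 0.0777). With a mitochondrial limit of 5% BOC and PTCH1 did not (adjusted p = 0.126 and 0.247), and with cells thinned to 2000 UMIs 0 of the genes passed, where 98 of 6755 genes tested did.

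**Figure D5:**
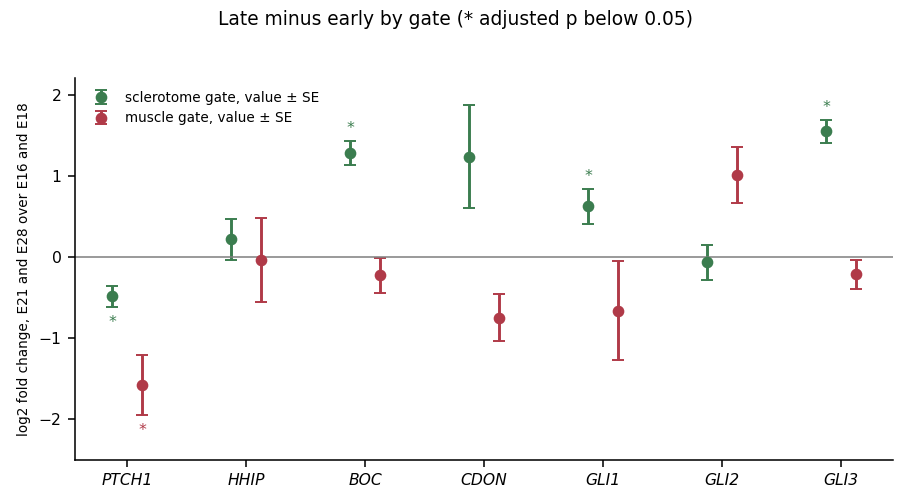
Log2 fold change of late over early libraries (vertical axis, value ± standard error) for 7 genes in the sclerotome (green) and muscle (red) gates, with a star where the adjusted p is below 0.05. GLI3 and BOC rise by 1.55 and 1.28 in the sclerotome gate and give -0.21 and -0.23 in the muscle gate.

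The neural gate was compared between E21 and the earlier stages. HHIP was 15.7 and 10.3 CPM at E16, 20.4 and 32.7 CPM at E18, and 55.9 and 95.7 CPM at E21, without overlap, and rose by 2.02 ± 0.29 (adjusted p = 1.33e-08). BOC rose by 0.76 ± 0.21 (adjusted p = 0.00363) and GLI1 fell by 1.33 ± 0.41 (adjusted p = 0.0131), from 26.1 to 34.3 CPM in the early libraries to 10.2 and 16.0 CPM at E21. The GLI1 levels of E21 rested on 6 UMIs in each library. These 3 of 7 stood against 20.1% of all genes, and PTCH1 gave 0.47 ± 0.21 (adjusted p = 0.107). Without E21-ZZ, by DESeq2 or with gates of at least 3 UMIs HHIP alone passed, GLI1 was lost with gates that may overlap (adjusted p = 0.106) and with a mitochondrial limit of 5% (adjusted p = 0.144), and BOC was also lost when E16-DZ, E18-ZZ or E21-DZ was left out. With cells thinned to 2000 UMIs 2708 genes were tested, HHIP was not among them, and 0 of the 8 genes passed. The neural gate held 10 and 1 ventral cells at E21, against 22 and 31 at E16 and 70 and 66 at E18, and the part of this difference in the GLI1 fall was not tested. The summed level of 4 neuron markers in the gate was 21.2 to 32.2 CPM early and 74.5 to 83.0 CPM at E21, with none of the 4 at 0. That of PAX3 and DMRT2, the markers of the dermomyotome gate, was 22.0 to 45.6 CPM early and 71.8 to 115 CPM at E21. At most 1 of them was at 0 early, and 1 was at 0 in both E21 libraries. PAX3 is also a dorsal factor of the split above, so this level does not tell dermomyotome from dorsal neural cells. The 3 epithelial markers summed to 8.15 to 35.0 CPM early and 0 to 1.69 CPM at E21, with up to 1 of them at 0 early and up to 3 at E21, and the 3 lateral mesoderm markers summed to 1.57 to 20.6 CPM early and 0 at E21. Their part in these changes was not tested. Of 22 other pathway genes tested 3 rose and 3 fell, among them NKX6-1, lower by 1.57 ± 0.35.

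In the sclerotome gate 7 other pathway genes rose late and 2 fell, of 26 tested, where 32.2% of all genes were called. CCND1, a cyclin and target, rose by 2.43 ± 0.14, HHAT by 2.29 ± 0.44 and SCUBE3 by 2.29 ± 0.54, and MYCN fell by 1.35 ± 0.22. In the muscle gate 3 rose and 4 fell of 25 tested, where 16.8% of all genes were called, with GPC4 higher by 4.45 ± 1.43, GPC3 by 1.87 ± 0.18 and DISP1 by 1.67 ± 0.40, and LRP2 lower by 3.03 ± 0.97, SCUBE1 by 1.95 ± 0.60 and MYCN by 1.13 ± 0.34.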

How the data were processed

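Cells of pig somites (E16, E18 and E21) and myotomes (E28) were measured with the 10x Genomics 3' kit. The authors deposited UMI counts per gene and cell, made with Cell Ranger 3.1.0 (E16) or 3.0.2 (other stages) on Sscrofa11.1 with Ensembl 98 genes, and all the matrices were mapped to their libraries by the labels. Cells with at least 200 genes, at most 30000 UMIs and at most 10% mitochondrial UMIs (13 genes) were kept, and the highest Scrublet scores (scanpy 1.11.5) were removed at 0.8% per 1000 barcodes. Cells meeting several of 10 gates, the sclerotome, muscle and neural gates among them, were left out (89.7% of sclerotome, 86.1% of muscle and 80.7% of neural cells were kept). The dermomyotome, chondrogenic, connective tissue, lateral mesoderm and midline gates took cells of none of these (the midline gate neural cells as well) and may share cells with each other.

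Counts were summed by gate and library, needing 20 cells, and tested in edgeR 4.0.16 (R 4.3.3) with TMM, its filter on low counts and the quasi-likelihood test, threshold 0.05, with stage and breed as terms, or the library as a block between gates. Standard errors are those implied by the test. Residual degrees of freedom ran from 2, for the neural gate by stage and ventral against dorsal cells, to 12, between gates. The quasi-likelihood test adds to them a prior on the spread that is shared over genes. P-values thus rest on the spread between these libraries, each of 1 sow, and on that prior, the more so where few degrees of freedom are left. Counts simulated with a common spread were used to check the fits of whole libraries by stage, gates, sclerotome by stage and ventral cells. Differences between libraries other than depth were not simulated, and the other fits were not checked in this way. DESeq2 1.42.0, RLE scaling, other cell filters and gates, and leaving out each library were the alternatives. The 8 genes, the gates and the pathway lists were chosen with earlier results of these data known. Named genes are the members, at most 3 pathway genes per direction with the largest called fold change (a gate's markers left out of the comparisons of that gate), and the 3 most correlated genes of SHH, PTCH1, GLI1 and HHIP among those with a mean of at least 5 CPM. Some genes that this rule names are not reported here. RefSeq of Sscrofa11.1 gave the sequence.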

Additional observations from a re-analysis of the deposited data

Results flagged for a closer look

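Of 48 groups of 4 libraries tested by Dixon's ratio, which covered the 8 genes in whole libraries and in the sclerotome and muscle gates, early and late, 5 held a library far from the other three. Chance alone marks about 1 in 20 such groups, a rate that does not apply to the 3 SHH groups, where any UMI beside libraries at 0 is marked. Whole-library GLI1 was 8.37 CPM in E28-DZ against 14.3 to 14.8 CPM in the other late libraries. GLI3 in the muscle gate was 60.1 CPM in E16-DZ, a sum of 20 cells, against 86.4 to 87.6 CPM in the other early libraries. SHH was 5.08 CPM in the muscle gate of E16-ZZ and 0.23 CPM in that of E21-DZ, each from 1 UMI, and 1.05 CPM in the sclerotome gate of E21-ZZ, from 4 UMIs, where the other libraries of the group were at 0.

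The change from early to late differed between the sclerotome and muscle gates by a test of the difference itself for 4 of 7 genes tested, where 8.22% of all genes were called. This comparison was chosen after the data were seen. The log2 difference was 1.74 for BOC, 1.73 for GLI1, 1.69 for GLI3 and 1.21 for PTCH1, higher in the sclerotome gate in each case (edgeR's quasi-likelihood test, adjusted p = 0.0169, 0.0137, 0.00149 and 0.0102). The E16 muscle sums held 25 and 20 cells, and BOC, GLI1 and PTCH1 did not pass without E18-DZ. With cells thinned to 2000 UMIs 0 of the 4 passed.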

How the results depend on the processing

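Of 1926 values of single genes under an alternative, 1703 kept direction and side of the threshold, 94 lost a call, 62 gained one and 67 changed sign, and in these 67 the gene was called neither in the comparison as reported nor under that alternative. The cause was not tested. The counts of called genes below were not set against the share of all genes called under the same alternative. A gain or loss therefore cannot be read as particular to these genes. The number of genes called late against early in whole libraries was 3 with early and late as 2 levels. From E16 to E18 it was 0 with a mitochondrial limit of 5%, 5 by DESeq2 and 1 without the breed term, from E18 to E21 2 without a mitochondrial limit and by DESeq2, and between breeds 1 by DESeq2. Between the sclerotome and neural gates it was 1 with RLE scaling and without the filter on low counts, and 2 with doublets kept, with overlapping gates, with the neuron gate read without STMN2 (chosen after seeing the data) and by DESeq2, and between muscle and neural 2 with gates of 1 UMI or thinned cells. In the sclerotome gate by stage it was 2 with gates of 3 UMIs or thinned cells. In the muscle gate by stage it was 2 with overlapping gates, thinned cells, without STMN2, without the filter, by DESeq2, without the breed term and with 2 levels, 3 with a mitochondrial limit of 5%, and 4 with gates of 3 UMIs, without both E16 libraries or with sums of at least 50 cells (chosen after seeing the data). In the neural gate by stage it was 5 with gates of 1 UMI, 1 with gates of 3 UMIs or by DESeq2 and 0 with thinned cells, in differentiated against progenitor muscle 3 with thinned cells, and for the difference between sclerotome and muscle 2 with the 5% limit and 0 with thinned cells. No library kept 20 ventral and 20 dorsal cells after thinning, so that comparison was not run there, and the limit of 1000 UMIs left its cells as they were.

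With each library left out in turn, the number called ranged from 0 to 3 from E16 to E18, 0 to 1 from E18 to E21, 2 to 4 from E21 to E28, 0 to 2 between sclerotome and neural, 2 to 4 between muscle and neural, 2 to 4 in the sclerotome and 0 to 3 in the muscle gate by stage, 1 to 3 in the neural gate by stage, and 1 to 5 for the difference between sclerotome and muscle.

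Sign changes with the 5% limit were -0.045 for HHIP from E16 to E18, -0.047 for GLI1 from E18 to E21, 0.007 for BOC in sclerotome against muscle, 0.144 for GLI2 in the sclerotome gate by stage, -0.091 for GLI2 in ventral against dorsal and -0.067 for PTCH1 in differentiated against progenitor cells. Without that limit they were -0.011 for HHIP between breeds, 0.582 for HHIP in the muscle and -0.001 for GLI3 in the neural gate by stage, and -0.021 for PTCH1 in differentiated cells. With doublets kept they were 0.092 for GLI2 in the sclerotome gate by stage and -0.079 for PTCH1 in differentiated cells. With gates of 1 UMI they were 0.001 for BOC in the muscle gate by stage, -0.664 for GLI2 in ventral and -0.052 for PTCH1 in differentiated cells, with gates of 3 UMIs -0.015 for GLI2 in ventral cells, and with overlapping gates -0.171 for GLI3 in the neural gate by stage. With thinned cells they were 0.293 for BOC in sclerotome against muscle, 0.304 for GLI3 and 0.225 for BOC in the muscle gate by stage, and -0.478 for GLI3 in the neural gate by stage.

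Other sign changes were -0.11 for GLI1 late against early and -0.134 for HHIP between breeds without both E16 libraries, -0.007 for HHIP between breeds without the stage term, 0 for HHIP in the muscle gate and -0.057 for GLI3 in the neural gate by stage without the filter, -0.079 for HHIP by DESeq2 and -0.068 for GLI2 with sums of at least 50 cells in ventral against dorsal cells. Leaving out single libraries gave, in whole libraries, -0.077 to 0.424 for GLI1 late against early, -1.829 to 0.207 for SHH and -0.048 to 0.601 for HHIP from E16 to E18, -0.186 to 0.348 for GLI1, -0.116 to 0.446 for HHIP and -0.107 to 0.147 for GLI2 from E18 to E21, -0.087 to 0.167 for GLI2, -0.006 to 0.632 for CDON and -0.914 to 0.053 for GLI1 from E21 to E28, and -0.126 to 0.166 for HHIP, -0.09 to 0.022 for PTCH1 and -0.082 to 0.294 for GLI1 between breeds. In gates it gave -0.137 to 0.107 for GLI2, -0.139 to 0.695 for HHIP and -0.004 to 0.357 for GLI3 in sclerotome against muscle, -0.197 to 0.071 for GLI2 in the sclerotome, -1.446 to 3.537 for GLI1 and -0.241 to 0.218 for HHIP in the muscle and -0.09 to 0.06 for GLI3 in the neural gate by stage, -0.068 to 0.494 for GLI2 in ventral against dorsal cells, and -0.08 to 1.576 for HHIP in the difference between sclerotome and muscle.

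SHH counts, the 20 and 25 muscle cells at E16 and the 3 libraries with ventral and dorsal cells were among the limits of depth. Where an arm was left with 1 library, the spread was taken from the other stages. Replicate numbers pair nothing, since each combination of stage and breed was 1 library. The stage term of the breed comparison sets ZZ against DZ within a stage. The gates of a library were compared with that library as a block.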
